A study of Mus musculus with 6 samples.

Results

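The BCL2 family decides whether the outer membrane of mitochondria stays intact, and 9 of its genes that are not the classical p53 targets of the family were compared between Tespa1-/- and Tespa1+/+ LSKs. The members were the rows of the deposited gene table named Bcl2, Bcl2l1, Mcl1, Bcl2a1b, Bcl2l11, Bmf, Bid, Bad and Bak1, that is, 9 of 55487 genes. Of these, 8 were among the 15332 genes that passed the filter on low counts and were tested, and Bcl2a1b was not. LSKs are bone marrow cells without lineage markers that carry Sca-1 and c-Kit, a fraction that holds the hematopoietic stem and progenitor cells. Poly-A RNA was sequenced from LSKs of 3 Tespa1+/+ samples (wild type) and 3 Tespa1-/- samples, all from mice that had received sublethal total-body irradiation. Tespa1 is an adaptor-like protein first described in developing T cells, and the knockout was carried in the germline on a C57BL/6 background, not restricted to blood cells. No unirradiated sample was part of the comparison, and whether a sample was 1 mouse or a pool was not stated, so that p-values measure the spread between these samples, which may be technical.

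In this family, BCL2, BCL-XL (from Bcl2l1), MCL1 and A1 (from the Bcl2a1 genes) protect the cell by binding and holding their pro-death relatives. BIM (from Bcl2l11), BMF, BID and BAD share only the BH3 stretch with them, bind into the groove of the protectors and thereby relay damage or growth factor loss. BAK, like its relative BAX, then opens the outer membrane so that cytochrome c leaves and caspases are switched on. Hematopoietic stem cells are known to need MCL1 for survival, and forced BCL2 is known to enlarge their pool.

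Among the 8 members tested, Bcl2 and Bcl2l11 fell, Bad rose, and Mcl1 and Bak1 moved by less than the fold of 1.5 that was asked for a call. A gene passed the test at an adjusted p under 0.05 (edgeR quasi-likelihood test, Benjamini-Hochberg adjustment over all 15332 genes) and was called where its fold was also over 1.5. By that rule 1 member was higher and 2 were lower in Tespa1-/- LSKs, and over all genes tested 14.0% were called higher and 19.2% lower, 33.3% in all. At an adjusted p under 0.05 alone, 2 members were higher, 3 were lower and 3 did not pass, where 31.5% of all genes were higher and 31.8% lower, 63.3% in all. The groups did not overlap for 2 members that were higher and 3 that were lower, and over all genes this held for 34.5% and 34.6%, or 69.1% together. The share of members that changed was near that of genes at large.

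**Figure D1:**
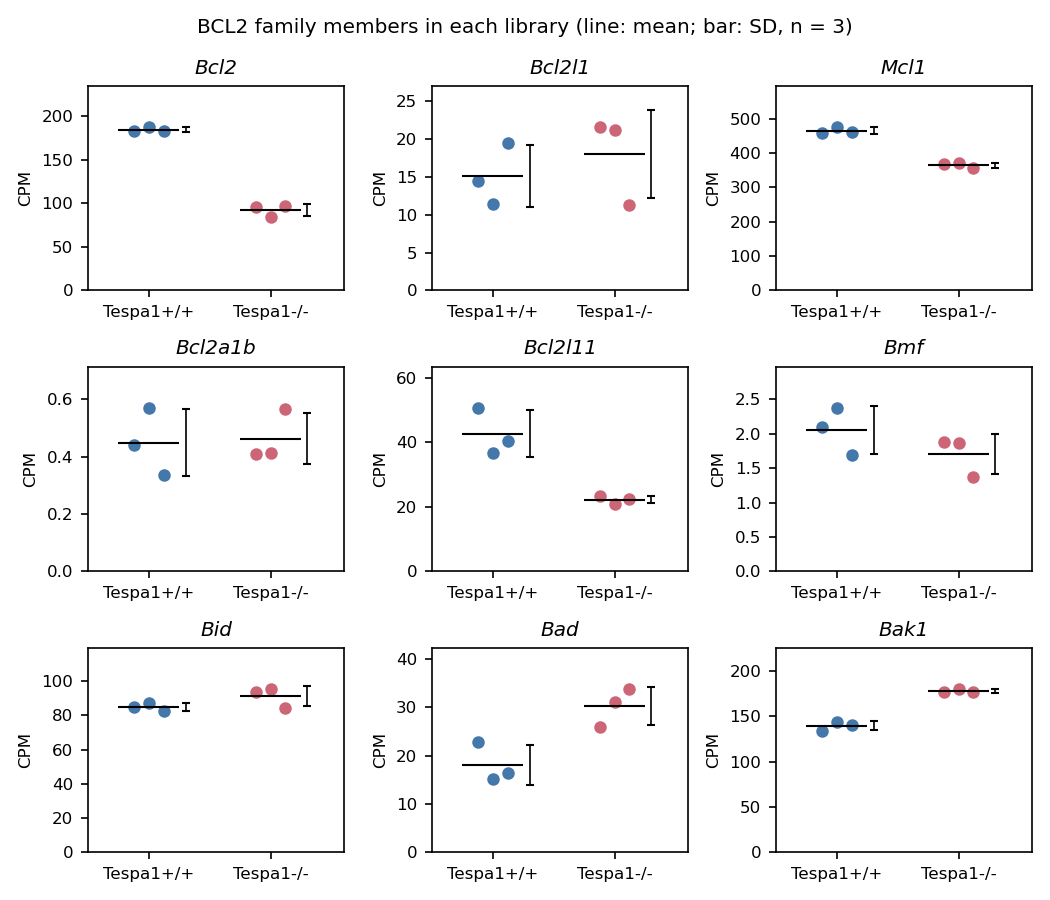
Normalised read counts (CPM, vertical axes from 0) of the 9 members in each of the 3 Tespa1+/+ (blue) and 3 Tespa1-/- (red) libraries, with the group mean as a line and the SD as a bar. The groups are apart for Bcl2, Mcl1, Bcl2l11, Bad and Bak1, and overlap for Bcl2l1, Bcl2a1b, Bmf and Bid.

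The libraries held between 12856630 and 30576981 counts. Levels are given as CPM, that is, normalised read counts scaled by library total and TMM factors. The targeted gene Tespa1 had counts of 533 to 1033 in Tespa1+/+ and 176 to 261 in Tespa1-/- libraries (log2 fold change -1.23, edgeR adjusted p = 7.0e-06), so its transcript was lower but was still counted in each Tespa1-/- library. Of the sort markers, Kit was called lower (log2 fold change -0.97), and Ly6a, which encodes Sca-1, had a log2 fold change of -0.32 (edgeR adjusted p = 0.109). Neutrophil markers, genes of secondary granules among them, summed to 52.9 to 53.9 CPM in Tespa1+/+ and 553.1 to 579.5 CPM in Tespa1-/- libraries. Of the 11 tested, 10 were called higher. Primary granule markers summed to 10907 to 11637 and 17958 to 18774 CPM. Stem cell markers moved the other way, from 124.2 to 134.3 CPM down to 46.6 to 50.01 CPM, with 7 of 8 called lower. Megakaryocyte markers summed to 106.5 to 113.5 and 66.9 to 71.4 CPM (2 of 5 called lower), and T cell markers to 15.4 to 16.8 and 8.13 to 9.10 CPM (3 of 3 tested called lower), with Cd3e at a count of 0 in the 3 Tespa1-/- libraries. The summed levels of B and plasma cell markers were 195.9 to 220.1 and 264.4 to 274.8 CPM (1 called higher and 6 lower of 11), those of monocyte and macrophage markers 525.8 to 569.1 and 646.9 to 750.7 CPM (1 higher and 1 lower of 7), and those of erythroid markers 28.2 to 29.5 and 45.7 to 49.5 CPM (2 higher and 2 lower of 5). The part of these marker shifts in the results on the BCL2 family was not tested, and in bulk RNA fewer cells of a type and less RNA per cell cannot be told apart.

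The sequence just before the start of Bcl2, Bcl2l11 and Bad is shown because these are the 3 members called. All 9 members matched the RefSeq promoter table of build GRCm38.p6, with 15 start sites among them. The 250 bases upstream of a start were searched on both strands for CACGTG (the E-box bound by MYC and its relatives), GTAAACA (a forkhead site), GGGCGG (the GC box bound by SP1-like factors) and TGACG (the core of the CRE), and the capitals mark every match. Bcl2l11 and Bad have 2 start sites each in the table, and the upstream one is shown. Each line runs 5′ to 3′ on the strand of the gene and ends at the base before the start site.
Bcl2 (chr1:106714291-106714540, minus strand): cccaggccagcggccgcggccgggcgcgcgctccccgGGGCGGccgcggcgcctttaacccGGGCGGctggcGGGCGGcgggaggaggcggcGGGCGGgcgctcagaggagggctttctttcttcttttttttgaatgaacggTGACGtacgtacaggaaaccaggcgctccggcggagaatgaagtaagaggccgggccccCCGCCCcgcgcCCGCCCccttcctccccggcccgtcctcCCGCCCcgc
Bcl2l11 (chr2:128125788-128126037, plus strand): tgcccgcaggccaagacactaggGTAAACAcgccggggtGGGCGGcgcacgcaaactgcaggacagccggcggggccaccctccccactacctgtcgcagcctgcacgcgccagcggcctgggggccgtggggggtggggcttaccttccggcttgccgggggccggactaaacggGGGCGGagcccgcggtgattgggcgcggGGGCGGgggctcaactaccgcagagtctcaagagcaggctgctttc
Bad (chr19:6941611-6941860, plus strand): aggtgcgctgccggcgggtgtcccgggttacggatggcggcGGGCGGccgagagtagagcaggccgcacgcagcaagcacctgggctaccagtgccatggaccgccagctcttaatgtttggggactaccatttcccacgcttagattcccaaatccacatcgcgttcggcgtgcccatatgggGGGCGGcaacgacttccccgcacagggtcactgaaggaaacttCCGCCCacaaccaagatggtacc

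The Bcl2 window held 7 GC boxes and 1 CRE core, the Bcl2l11 window 3 GC boxes and 1 forkhead site, and the Bad window 3 GC boxes. The windows of the downstream starts, which are not shown, held 2 GC boxes and no forkhead site for Bcl2l11 and no match for Bad. The forkhead site of Bcl2l11 lay 227 bases before the start and was the only one found among the 15 member windows, where 3.17% of all 32851 windows held one. GC boxes were present in 7 of the 15 member windows and in 32.7% of all windows, CRE cores in 3 of 15 and in 17.8%, and E-boxes in 0 of 15 and in 6.02%. These matches are letters in a window and do not show that a factor was bound.

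Among the protectors, Bcl2 (ENSMUSG00000057329, GRCm38 chromosome 1, 106538178 to 106714274, minus strand, protein coding) changed most in size. Its normalised read count was 183.1, 187.7 and 183.2 CPM in the Tespa1+/+ libraries and 95.2, 84.0 and 96.6 CPM in the Tespa1-/- libraries. The lowest Tespa1+/+ library thus lay far above the highest Tespa1-/- library, and the spread within the groups was small. The mean fell from 184.7 ± 2.62 to 91.9 ± 6.92 CPM (n = 3 each, SD), which is 49.8% of the Tespa1+/+ level. The log2 fold change was -1.01 (SE 0.06, 95% confidence interval -1.14 to -0.87, edgeR adjusted p = 7.6e-06). These values rest on 2716 to 5927 counts per Tespa1+/+ library and 1198 to 1621 per Tespa1-/- library. An antisense gene shares 6.1% of the exon bases of Bcl2 but held no more than 7 counts in any library.

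Mcl1 (ENSMUSG00000038612, chromosome 3, 95658788 to 95663176, plus strand), the gene of the short-lived protector on which stem cells depend, was the most abundant member. It measured 456.9, 475.6 and 460.8 CPM in Tespa1+/+ and 366.9, 369.4 and 356.4 CPM in Tespa1-/- LSKs. The groups did not overlap, but the step between them was smaller than for Bcl2. The mean went from 464.4 ± 9.90 to 364.2 ± 6.93 CPM (SD, n = 3 each), or 78.4% of the Tespa1+/+ level, with a log2 fold change of -0.35 (SE 0.03, 95% confidence interval -0.42 to -0.28, edgeR adjusted p = 4.0e-05). Mcl1 therefore fell by less than the fold asked for a call. Its spread between replicates, as estimated by edgeR, was in the lowest 2.23% of all genes tested.

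Bcl2l1 (ENSMUSG00000007659, chromosome 2, 152780668 to 152831728, minus strand) encodes BCL-XL, the protector best known for the survival of erythroid cells and platelets. It was at 14.4, 11.5 and 19.5 CPM in Tespa1+/+ and at 21.6, 21.2 and 11.3 CPM in Tespa1-/- libraries. The lowest value of all 6 libraries and the highest were both in the Tespa1-/- group. The log2 fold change was 0.28 (SE 0.28, 95% confidence interval -0.39 to 0.94, edgeR adjusted p = 0.422), an interval that leaves room for changes larger than 1.5-fold upward. Its spread was higher than that of 95.2% of the genes tested, and the value moved to 0.52 (edgeR adjusted p = 0.0742) without Tespa1-/- replicate 3 and to as little as 0.11 when another library was left out.

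Bcl2a1b (ENSMUSG00000089929, chromosome 9, 89199209 to 89207827, plus strand), a gene of the protector A1 that is typical of activated and myeloid cells, was hardly detected. It had 8, 18 and 5 counts in Tespa1+/+ and 7, 6 and 7 counts in Tespa1-/- libraries, which is 0.449 ± 0.117 and 0.463 ± 0.0880 CPM (SD, n = 3 each). A difference was not detectable at this depth. The gene stands in a cluster of near-identical copies, so that its count also depends on how reads shared by the copies were assigned. The first 90 coding bases of 3 copies, which hold 6 of the 12 positions at which their 516 coding bases differ, are shown on the coding strand with the differing positions in capitals.
Bcl2a1a (chr9:88957051-88957140, plus strand): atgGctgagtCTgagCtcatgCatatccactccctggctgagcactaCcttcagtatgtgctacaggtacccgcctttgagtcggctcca
Bcl2a1b (chr9:89199360-89199449, plus strand): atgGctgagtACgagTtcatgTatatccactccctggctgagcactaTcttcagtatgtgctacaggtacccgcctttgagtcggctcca
Bcl2a1d (chr9:88731630-88731719, minus strand): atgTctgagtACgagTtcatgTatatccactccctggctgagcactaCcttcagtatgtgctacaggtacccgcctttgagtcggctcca

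Over the coding sequence of GENCODE M21, Bcl2a1b was identical to Bcl2a1a at 97.9% and to Bcl2a1d at 98.8% of the bases. Of the stretches of 100 bases in the Bcl2a1b transcript, 56.8% were present unchanged in a transcript of another gene, among them 42.2% in Gm29094, which shares 49.1% of the exon bases of Bcl2a1b on the same strand. Gm29094 had 0, 3 and 1 counts in Tespa1+/+ and 2, 4 and 11 counts in Tespa1-/- libraries. How reads were divided between Gm29094 and Bcl2a1b was not tested. The Tespa1+/+ libraries held 9, 27 and 16 counts of Bcl2a1a and the Tespa1-/- libraries 7, 18 and 10, and for Bcl2a1d they held 10, 25 and 17 counts and 22, 17 and 14 counts. Neither passed the test, with log2 fold changes of -0.0025 for Bcl2a1a and 0.56 for Bcl2a1d (edgeR adjusted p = 0.997 and 0.122). Bcl2a1c was at a count of 0 in all 6 libraries.

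Among the BH3-only genes, Bcl2l11 (ENSMUSG00000027381, chromosome 2, 128126038 to 128162547, plus strand), the gene of BIM, fell about as much as Bcl2. Its level was 50.7, 36.6 and 40.5 CPM in Tespa1+/+ and 23.3, 21.0 and 22.3 CPM in Tespa1-/- LSKs. The Tespa1-/- libraries lay close together, whereas the Tespa1+/+ libraries were more scattered, and the groups did not overlap. The mean went from 42.6 ± 7.26 to 22.2 ± 1.15 CPM (SD, n = 3 each), or 52.2% of the Tespa1+/+ level. The log2 fold change was -0.94 (SE 0.12, 95% confidence interval -1.23 to -0.64, edgeR adjusted p = 4.6e-04). BIM is a strong binder of all the protectors and is known to be needed for the removal of surplus blood cells, and its transcript fell together with that of the protector BCL2.

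Bad (ENSMUSG00000024959, chromosome 19, 6941861 to 6951899, plus strand), whose protein is kept inactive by AKT phosphorylation when growth factors are present, rose. It measured 22.8, 15.1 and 16.4 CPM in Tespa1+/+ and 26.0, 31.1 and 33.8 CPM in Tespa1-/- libraries. The highest Tespa1+/+ library came near the lowest Tespa1-/- library without reaching it. Mean levels were 18.1 ± 4.15 and 30.3 ± 3.95 CPM (SD, n = 3 each). This is a log2 fold change of 0.74 (SE 0.17, 95% confidence interval 0.34 to 1.15, edgeR adjusted p = 0.00708). The interval reached below the fold of 1.5, and a test against that fold (glmTreat) did not pass (adjusted p = 0.267). Bad shares 20.5% of its exon bases with Gpr137 on the opposite strand, which had 275, 366 and 212 counts in Tespa1+/+ and 346, 353 and 235 counts in Tespa1-/- LSKs. The libraries were made with a stranded kit, and whether counting used the strand is not given in the sources used here.

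Bid (ENSMUSG00000004446, chromosome 6, 120891930 to 120916853, minus strand), which caspase-8 cleaves to link death receptors to mitochondria, showed no difference that passed the test. It was at 85.0, 87.3 and 82.6 CPM in Tespa1+/+ and 93.5, 95.5 and 84.4 CPM in Tespa1-/- LSKs. Of the Tespa1-/- libraries, replicates 1 and 2 were above all Tespa1+/+ libraries and replicate 3 was among them. The log2 fold change was 0.10 (SE 0.05, 95% confidence interval -0.03 to 0.23, edgeR adjusted p = 0.144), so that a change beyond 1.5-fold lay outside the interval. Without Tespa1-/- replicate 3 the log2 fold change was 0.16 and passed the test (edgeR adjusted p = 0.0249). Exons of Bid share 17.7% of their bases with Bcl2l13 on the opposite strand. Bcl2l13 had 2016, 3560 and 1528 counts in Tespa1+/+ and 1492, 1263 and 1059 counts in Tespa1-/- libraries. It was lower in Tespa1-/- LSKs (log2 fold change -0.33, edgeR adjusted p = 5.0e-04). Whether reads of Bcl2l13 entered the counts of Bid was not tested.

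Bmf (ENSMUSG00000040093, chromosome 2, 118528757 to 118549687, minus strand), whose protein is held at the actin cytoskeleton until the cell detaches, was the least abundant member per length. It had 38, 75 and 25 counts in Tespa1+/+ and 32, 27 and 17 counts in Tespa1-/- libraries. At 2.05 ± 0.346 and 1.70 ± 0.288 CPM (SD, n = 3 each) the groups overlapped. The log2 fold change was -0.28 (SE 0.20, 95% confidence interval -0.76 to 0.20, edgeR adjusted p = 0.265), an interval wide enough to hold a fall beyond 1.5-fold.

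Bak1 (ENSMUSG00000057789, chromosome 17, 27019810 to 27029009, minus strand), the pore former of the set, rose by less than 1.5-fold. It was at 134.2, 143.9 and 140.6 CPM in Tespa1+/+ and at 177.0, 180.1 and 176.6 CPM in Tespa1-/- libraries. The Tespa1-/- values were nearly the same in the 3 libraries and all lay above the Tespa1+/+ values. Mean levels were 139.6 ± 4.93 and 177.9 ± 1.90 CPM (SD, n = 3 each). This is a log2 fold change of 0.35 (SE 0.04, 95% confidence interval 0.26 to 0.44, edgeR adjusted p = 1.3e-04). Ggnbp1 (ENSMUSG00000048731) lies on the opposite strand over 18.2% of the exon bases of Bak1 and had at most 82 counts in any library. Another gene entry of that name (ENSMUSG00000117819) covers 7.4% of them on the opposite strand, and its counts were not examined.

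**Figure D2:**
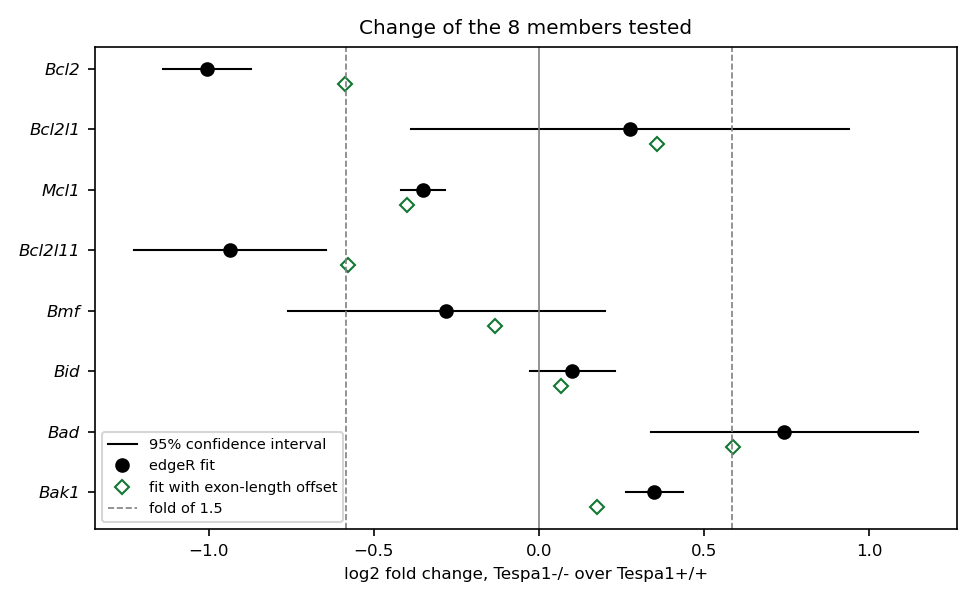
Log2 fold change of Tespa1-/- over Tespa1+/+ LSKs for the 8 members tested (black points, with the 95% confidence interval as a line), the same after an offset for exon length (open diamonds), and the fold of 1.5 as dashed lines. Bcl2 and Bcl2l11 move from -1.01 and -0.94 to -0.59 and -0.58 with the offset, while Mcl1 goes from -0.35 to -0.40.

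The size of several of these changes went along with the length of the gene. Over all genes tested the median log2 fold change went from 0.54 among the shortest of 10 groups of genes by summed exon length (median 427 bases) to -0.56 among the longest (median 11500 bases). Bcl2, with 9157 exon bases, belonged to the longest group and Bcl2l11, with 8029 bases, to the next, where the median was -0.35. Even so, Bcl2 was lower than its length group by 0.45 on the log2 scale and Bcl2l11 by 0.58, with 23.0% and 17.0% of the genes of their groups below them. Mcl1 has 3418 exon bases, a length at which the median gene had a log2 fold change of 0.07, and it lay 0.42 below that median. Bad, with 2558 bases, lay 0.55 above its group and higher than 92.6% of it. Bak1 and Bid lay 0.16 and 0.03 above theirs, Bcl2l1 0.39 above, and Bmf 0.16 below.

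When the trend was removed by an offset fitted to exon length in each library, the log2 fold change of Bcl2 became -0.59 (edgeR adjusted p = 1.1e-04) and that of Bcl2l11 -0.58 (edgeR adjusted p = 0.00527). Both still passed the test, but Bcl2 lay just beyond and Bcl2l11 just short of the fold of 1.5, so that the number of members called lower went from 2 to 1. Bad was at 0.59 (edgeR adjusted p = 0.0243) and remained called, and Bak1 was at 0.18 (edgeR adjusted p = 0.00377). Mcl1 kept its change, at -0.40 (edgeR adjusted p = 3.4e-05). With this offset 8.11% of all genes were called higher and 15.4% lower, 23.5% in all. These values come from a robust loess, which was chosen after the least-squares form had been seen to shift the median of all genes. With the least-squares form Bcl2 and Bcl2l11 were at -0.49 and -0.48, and no member was called lower (adjusted p = 2.5e-04 and 0.0117 by edgeR).

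**Figure D3:**
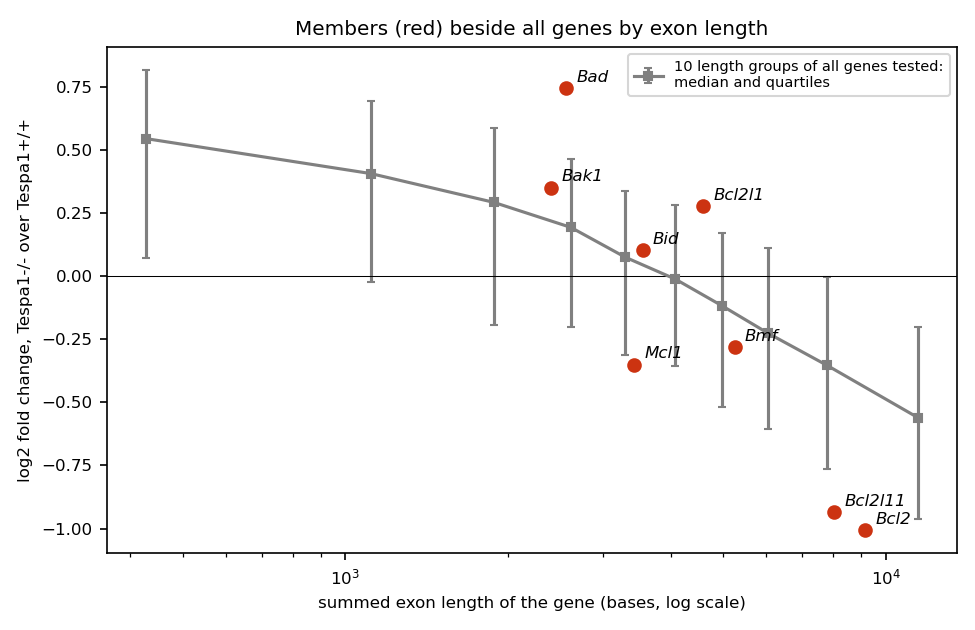
Log2 fold change (vertical axis) against summed exon length in bases (log scale) for the 8 members tested (red points) and for all genes tested in 10 groups by length (grey squares, median with lower and upper quartile). Bcl2, Bcl2l11 and Mcl1 lie below the quartile range of genes of their length and Bad and Bcl2l1 above it, while Bid sits close to the median line.

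To compare members with each other, levels were taken per length as the deposited FPKM. In Tespa1+/+ LSKs Mcl1 led with 119.2 FPKM, followed by Bak1 with 31.2, Bcl2 with 19.0, Bid with 16.1, Bcl2l11 with 2.84, Bad with 2.80, Bcl2l1 with 1.31, Bcl2a1b with 0.568 and Bmf with 0.208 FPKM (means, n = 3). Neighbours in this order did not overlap between libraries except Bcl2l11 and Bad. In Tespa1-/- LSKs Bcl2 at 8.84 FPKM stood below Bid at 16.1, and Bcl2l11 at 1.38 FPKM stood below Bad at 4.37 and within the range of Bcl2l1, whose mean was 1.46. On this scale Bcl2 went from the third place to the fourth and Bcl2l11 from the fifth to the seventh. On CPM per kilobase of annotated exon, a different measure of length, Bid at 23.9 already stood above Bcl2 at 20.2 in Tespa1+/+ LSKs, and Bad at 7.08 above Bcl2l11 at 5.30 with overlapping libraries. There Bcl2 went from the fourth place to the fifth and Bcl2l11 from the sixth to the seventh, so the steps in the order depend on the length used.

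The summed FPKM of the 9 members was 193.2 ± 2.94 in Tespa1+/+ and 157.1 ± 2.56 in Tespa1-/- LSKs (SD, n = 3 each). The 4 protectors held 72.2%, 72.7% and 72.7% of this sum in the Tespa1+/+ libraries and 62.8%, 62.1% and 62.3% in the Tespa1-/- libraries. Mcl1 alone made up 61.7% and 55.5% on average, and Bcl2 9.85% and 5.63%. The share of Bak1 went from 16.1% to 23.6% and that of the 4 BH3-only genes from 11.3% to 14.0%. No library of one group reached into the range of the other for these 5 shares. The summed level of the BH3-only genes was 21.9 ± 1.16 and 22.0 ± 0.785 FPKM (SD, n = 3 each), a difference within the spread. On FPKM their larger share thus goes with the lower total. On CPM per kilobase of annotated exon, Bid went from 23.9 to 25.7 and Bad from 7.08 to 11.8. There Bcl2l11 went from 5.30 to 2.77 and Bmf from 0.390 to 0.324, and the sum of these means rose. Mcl1 went from 135.9 to 106.6 and Bak1 from 58.0 to 73.9 on that scale. The sizes of the family sum and of the shares therefore depend on the scale used. Their direction did not: by the means on both scales, the family sum and the share of the protectors were lower in Tespa1-/- LSKs. The shares of Bak1 and of the BH3-only genes were higher on both. They describe transcripts and take no account of protein.

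**Figure D4:**
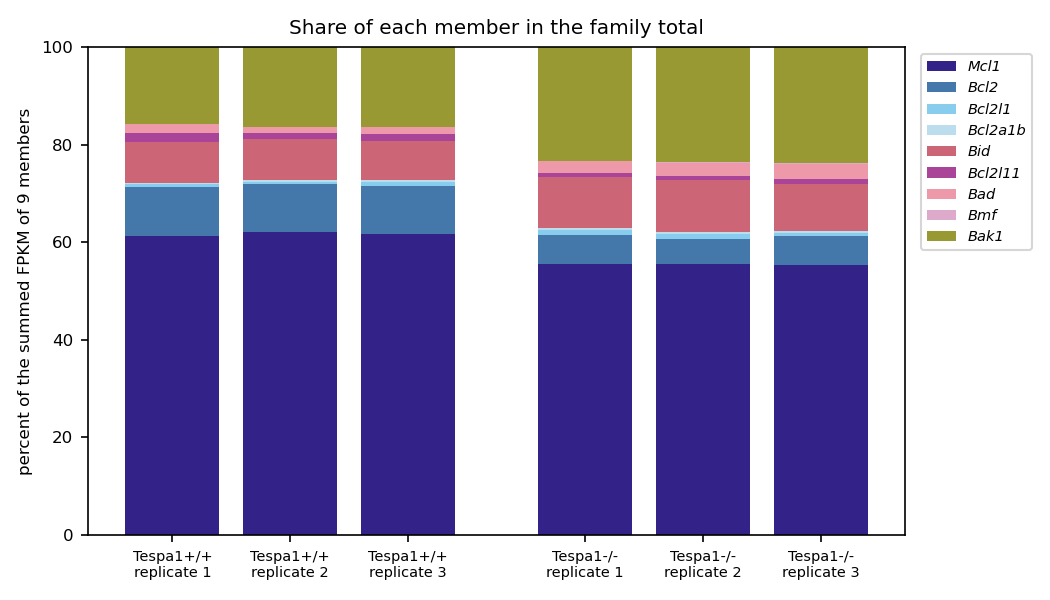
Share of each member in the summed FPKM of the 9 members (vertical axis, percent) for each of the 6 libraries, with protectors in blue shades, BH3-only genes in red and purple shades and Bak1 in olive. The protectors take up 72.5% on average in Tespa1+/+ and 62.4% in Tespa1-/- libraries, with little difference between libraries of a group. These percentages hold for FPKM, and their size depends on the scale used.

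Ratios of FPKM between pairs of members were also taken, as a description of transcript levels and not of binding. Bcl2 over Bak1 was 0.611 ± 0.0161 in Tespa1+/+ and 0.239 ± 0.0204 in Tespa1-/- LSKs, and Mcl1 over Bak1 was 3.82 ± 0.0761 and 2.35 ± 0.0323 (FPKM ratios, SD, n = 3 each). Bcl2 over Bad went from 7.03 ± 1.52 to 2.05 ± 0.342. Bcl2 over Bcl2l11, by contrast, was 6.84 ± 1.18 and 6.40 ± 0.263, a difference within the spread of the Tespa1+/+ libraries. Mcl1 over Bcl2 rose from 6.26 ± 0.0487 to 9.92 ± 0.926. Ratios of long to short genes also carry the length trend described above.

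The genes whose profile over the 6 libraries was most like that of Bcl2, by Euclidean distance between centred log2 CPM values, included Dock10 and Ptprf, at distances of 0.0815 and 0.0853. Their log2 fold changes were -1.02 and -1.08. Among the members the nearest was Bcl2l11, at a distance of 0.385 and the 735th place of 15331 genes. The genes most like Mcl1 were Chd4, Arhgef2 and 6530402F18Rik, at distances of 0.0502, 0.0519 and 0.0527.

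Further genes of the mitochondrial death pathway were described by their counts. Of 74 genes in 6 lists, 68 were tested, 4 were called higher and 6 lower, which is 14.7% of those tested beside 33.3% of all genes. At an adjusted p under 0.05 alone 22 were higher, 22 lower and 24 did not pass, beside 31.5% higher and 31.8% lower of all genes. The same shares stand beside the counts of each list below. Their median log2 fold change was -0.02, beside -0.00034 over all genes tested. The lists held changes in both directions.

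Of the 3 p53 targets of the family, Bax, the other pore former, was called higher with 43.9, 45.5 and 52.0 CPM in Tespa1+/+ and 76.7, 78.8 and 74.1 CPM in Tespa1-/- libraries (log2 fold change 0.70, edgeR adjusted p = 1.0e-04). Bbc3, the gene of PUMA, fell by less than 1.5-fold (log2 fold change -0.50, edgeR adjusted p = 2.7e-04). Pmaip1, the gene of NOXA, was at 54.7, 48.2 and 47.3 CPM in Tespa1+/+ and at 45.7, 53.7 and 116.1 CPM in Tespa1-/- libraries, and its difference rested on Tespa1-/- replicate 3 (log2 fold change 0.51, edgeR adjusted p = 0.208). With the length offset Bax was at 0.42 and no longer called, and Bbc3 was at -0.70 and called lower, a call that was not made when GC content was added to the offset (log2 fold change -0.53). Bax shares 12.2% of its exon bases with Gm45808 on the same strand. Of 10 other family genes tested, none was called, 3 passed the test as higher, 1 as lower and 6 did not pass.

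Downstream of the mitochondria, 16 genes of the apoptosome and caspases were tested. Cycs, the gene of the cytochrome c that BAK and BAX release, and Endog, a mitochondrial nuclease, were called higher with log2 fold changes of 0.71 and 1.14 (edgeR adjusted p = 4.4e-04 and 2.5e-05). Apaf1, the scaffold that cytochrome c activates, was called lower at -0.61 (edgeR adjusted p = 2.1e-04), but at -0.20 with the length offset it was not called. In this list 6 genes passed as higher, 5 as lower and 5 did not pass. Endog shares 35.7% of its exon bases with Spout1 on the opposite strand. None of 9 death receptor genes and none of 10 genes of the mitochondrial membrane was called, with 3 and 5 passing as higher and 2 and 1 as lower. With the length offset, however, 3 of the mitochondrial membrane genes were called higher, beside 8.11% of all genes.

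Of 20 genes tested that act on the members themselves, 1 was called higher and 5 lower, 30.0% of the list beside 33.3% of all genes. In this list 4 genes passed as higher and 12 as lower, beside 31.5% and 31.8% of all genes, and the median log2 fold change was -0.39. With the length offset 1 was called higher and 1 lower, 10.0% of the list beside 23.5% of all genes, and the median was -0.23. Huwe1, a ubiquitin ligase that marks MCL1 for breakdown, fell from 804.7 ± 3.42 to 303.7 ± 0.881 CPM (SD, n = 3 each), and Usp9x, which removes ubiquitin from MCL1, fell from 192.3 ± 2.74 to 94.1 ± 6.66 CPM. Their log2 fold changes were -1.41 and -1.03 (edgeR adjusted p = 9.2e-08 and 5.7e-06). Both are very long genes, and with the length offset the values were -0.53 and -0.37 and were no longer called.

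Foxo3 and Foxo1, forkhead factors known to switch on Bcl2l11, were called lower at -0.87 and -0.68 (edgeR adjusted p = 2.5e-06 and 0.00249) and were at -0.54 and -0.29 with the length offset and not called, where Foxo1 no longer passed the test (adjusted p = 0.0863 by edgeR). Dynll1, a dynein light chain to which BIM binds, rose from 68.4 ± 3.07 to 156.3 ± 5.56 CPM (SD, n = 3 each), at a log2 fold change of 1.19 (edgeR adjusted p = 2.1e-06) that the offset left at 1.20.

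**Figure D5:**
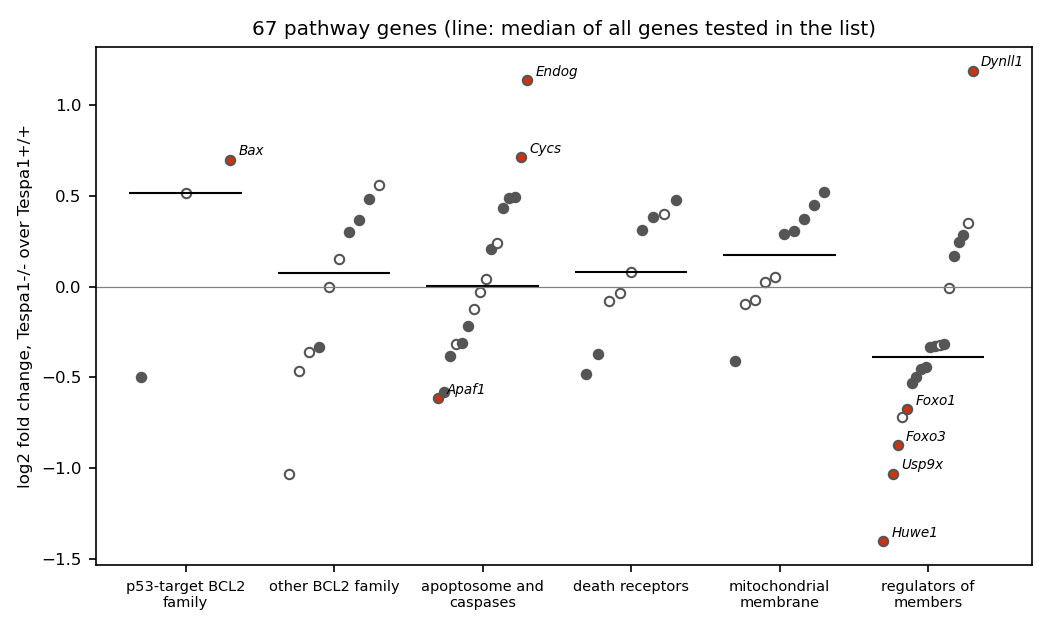
Log2 fold change of Tespa1-/- over Tespa1+/+ LSKs (vertical axis) for 67 of the 68 pathway genes tested, by list, with called genes in red and named, other genes that passed the test in grey, genes that did not pass in white, and the median of all genes tested in the list as a line. The regulators of members have the lowest median, -0.39.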

How the data were processed

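Stranded poly-A libraries of LSKs were sequenced on an Illumina NovaSeq instrument per the labels. The submitters' processing notes name CASAVA 1.8, HISAT2, StringTie, edgeR and build GRCm38, and the counting tool and its use of strand are not given in the sources used here. The authors deposited 1 table with raw counts per gene and the matching FPKM values, with no columns of comparisons. Groups were taken from the sample titles. The counts were filtered (filterByExpr), scaled by TMM and tested with edgeR 4.0.16 in R 4.3.3 (quasi-likelihood F-test, 6 libraries, no covariates), and the adjustment covered all 15332 genes. FPKM served for levels between genes and for an alternative with limma 3.58.1. DESeq2 1.42.0, other scalings and filters, glmTreat, an adjusted p under 0.01, offsets for gene length (loess, span 0.5) and GC content, the replicate number as a block and leaving out each library were alternatives. The loess of the offsets was made robust after its least-squares form had moved the median of all genes by 0.11. Counts of 2 libraries of a group differed by more than sampling noise in every pair (chi-square per degree of freedom 7.33 to 9.88). The scripts were tested on simulated data. Positions of the members in the table matched GENCODE M21, and those of the pathway genes did so with exceptions. Figures were drawn with matplotlib.

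The members, the 6 pathway lists and the marker lists were chosen with earlier results of these data known. Named were the members, Tespa1, the called pathway genes (adjusted p under 0.05, fold above 1.5), the p53-target and near-copy family genes, and the 3 genes nearest in profile to Bcl2 and to Mcl1, except that 1 called pathway gene and 1 gene near Bcl2 in profile are not reported here. Other genes named beside them share exon bases with a named gene or are markers, and Bcl2a1c, Cd3e and the overlapping genes were added after their values were seen.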

Additional observations from a re-analysis of the deposited data

How the results depend on the processing

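Under 19 alternatives Bcl2 and Bcl2l11 passed the test each time, at log2 fold changes of -1.11 to -0.49 and of -1.04 to -0.47. Mcl1, Bad and Bak1 passed in 18 of 19. The exception was glmTreat against a fold of 1.5, whose values of -0.35, 0.74 and 0.35 had adjusted p of 1, 0.267 and 1. Bcl2l1 and Bmf passed in none, with ranges of 0.08 to 0.60 and of -0.38 to -0.03 (17 alternatives for Bmf, which an FPKM minimum of 1 removed). Bid turned to -0.00023 and -0.00034 under limma-trend on log2(FPKM + 1) and log2(FPKM + 0.1), and passed at 0.18 with the least-squares length offset and when Tespa1-/- replicate 3 was left out (range without 1 library 0.075 to 0.16). Bcl2a1b had a log2 fold change of -0.04 without a filter (edgeR adjusted p = 0.947).

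The 1 member called higher became 0 under glmTreat and under limma-trend on log2(FPKM + 1). The 2 called lower became 1 with the offset for implied length, 1 with that for exon length and 0 with its least-squares form. Both counts were the same whichever library was left out. The 4 pathway genes called higher became 2 under glmTreat, 2 under limma-trend on log2(FPKM + 1) and 7 with the least-squares length offset, and ranged from 4 to 7 when 1 library was left out (7 without Tespa1+/+ replicate 3). The 6 called lower became 12 with total counts, which moved the median of all genes to -0.10, then 3 with exon length, 2 with exon length and GC content and 2 with least-squares, and ranged from 5 to 8 when 1 library was left out. Apart from the construction of each setting, the cause was not tested.

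Over all genes, 2148 were higher and 2951 lower in the main analysis, 1020 and 1807 under glmTreat, 1070 and 1626 under limma-trend on log2(FPKM + 1), and 1243 and 2361 with the exon length offset.

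Whether same-numbered libraries were paired cannot be told from these data. Their deviations correlated only at 0.01 to 0.07, but 5 of 6 libraries correlated best with their own number. With the replicate block Bcl2 was at -1.01 (edgeR adjusted p = 2.4e-04), Mcl1 at -0.35, Bcl2l11 at -0.93, Bad at 0.75, Bak1 at 0.35, Bid at 0.10, Bcl2l1 at 0.26 and Bmf at -0.27, with 1 member called higher and 2 lower, and 4 and 7 pathway genes.

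Depth limits Bcl2a1b and Bmf, whose counts lay between 5 and 75.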
